A study of Mus musculus with 3 samples.

Results

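Transcript levels of 9 transcription factor genes of epidermal differentiation, Trp63, Bnc1, Zfp750, Klf4, Grhl3, Ovol1, Prdm1, Gata3 and Foxn1, were followed from the bottom to the top of mouse ear epidermis in single-cell RNA libraries. The 9 genes were chosen by symbol, out of 31053 genes in the count matrices, and each had UMIs (unique molecular identifiers, each standing for one captured transcript) in each of the 3 libraries. The libraries were replicates 1 to 3 of a single group: epidermal cells from the ears of untreated C57BL/6N mice, an inbred laboratory strain, aged 9 weeks. There was no second genotype or treatment, so the comparisons are between groups of cells within these libraries. Separate animals are not named for the replicates in the sources used here, and the p-values then cover no more than the variation among these 3 libraries.

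The epidermis renews itself from a basal layer attached to the basement membrane. Daughter cells leave that layer, switch from the keratins Krt5 and Krt14 to Krt1 and Krt10 in the spinous layer, and then make loricrin (Lor) and the late cornified envelope (Lce1) proteins in the granular layer before they lose their nuclei. p63 (Trp63) and basonuclin 1 (Bnc1) are known as factors of basal keratinocytes. Zfp750, a zinc finger factor known as a p63 target, Klf4, Grhl3 and Ovol1 are known for the turn from proliferation to terminal differentiation and for the skin barrier. Prdm1 (Blimp1) is a repressor known from granular cells, Gata3 a factor of barrier lipid synthesis and hair follicle fate, and Foxn1 the factor whose loss gives the nude mouse.

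Cells were put into 5 groups by keratinocyte genes that are not among the 9. Basal cells (2387) had at least 0.5% of their UMIs in Krt5 plus Krt14 and less than that in Krt1 plus Krt10, transitional cells (196) had at least 0.5% in both sums, and spinous cells (2101) only in Krt1 plus Krt10. Granular cells had at least 1% of UMIs in Lor, read before the keratins, and were split at 2% of UMIs in the 14 Lce1 genes into an Lce1-low group (302 cells) and an Lce1-high group (123 cells). Markers that the rule did not use followed the names of the groups. Itga3, an integrin subunit of the basal cell surface, was at 77.8 ± 2.26 CPM (UMIs of the gene per 1000000 UMIs of the group in a library; mean ± SD, n = 3 libraries) in basal cells, 33.9 ± 10.6 in transitional cells and 0.821 ± 0.739 in spinous cells. Mt4, a metallothionein of the suprabasal layers, was highest in spinous cells at 5124 ± 720.0, and Flg2, a filaggrin family protein of keratohyalin granules, went from 83.2 ± 49.2 in spinous cells to 5628 ± 352 in Lce1-low granular cells. 

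The 3 libraries held 944, 2212 and 2184 cells after filtering, with 15527509, 24071995 and 27501411 UMIs. Median UMIs per cell went up with position, from 8354 in basal cells to 22724 in Lce1-high granular cells, whereas the latter had a median of 1919 detected genes against 3091 in the Lce1-low group. Transitional cells had the largest share of barcodes marked as doublets, 11 of 196, against 33 of 5340 over all cells. Of the basal cells, 391 carried cell cycle markers, and 194 carried markers of the hair follicle bulge, the latter being 3.84%, 6.12% and 12.2% of basal cells in replicates 1 to 3. Genes that set the groups took 28.6% ± 5.12 of all UMIs in Lce1-high cells, against 5.91% ± 1.03 in Lce1-low and 1.80% ± 0.218 in spinous cells. Fold changes therefore come from a fit scaled by TMM, which compares each gene with the bulk of genes, and are given beside the plain share of UMIs where the 2 differ in direction.

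Promoter sequences of 6 of the 9 genes, from RefSeq on build GRCm38.p6, are available for Bnc1, Klf4, Grhl3, Prdm1, Gata3 and Foxn1. Those of Foxn1, Grhl3 and Prdm1 are shown because these 3 genes showed 3 different patterns: a spinous window, a climb over several steps, and a granular onset. Each sequence runs 5′ to 3′ on the strand of the gene, which is the minus strand for all 3, and covers the 250 bases before the annotated start. Capitals mark the letters of motifs searched on both strands.
Foxn1, chr11:78386609-78386858: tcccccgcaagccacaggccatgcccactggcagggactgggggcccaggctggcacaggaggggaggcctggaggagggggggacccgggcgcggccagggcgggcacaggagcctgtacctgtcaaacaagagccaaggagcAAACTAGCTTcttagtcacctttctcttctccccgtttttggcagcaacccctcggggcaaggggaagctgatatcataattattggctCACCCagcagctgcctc
Grhl3, chr4:135573633-135573882: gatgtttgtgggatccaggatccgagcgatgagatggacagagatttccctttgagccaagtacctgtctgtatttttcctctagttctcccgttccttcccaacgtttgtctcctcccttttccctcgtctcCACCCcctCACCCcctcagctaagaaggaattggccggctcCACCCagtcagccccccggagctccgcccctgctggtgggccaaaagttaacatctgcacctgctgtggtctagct
Prdm1, chr10:44458749-44458998: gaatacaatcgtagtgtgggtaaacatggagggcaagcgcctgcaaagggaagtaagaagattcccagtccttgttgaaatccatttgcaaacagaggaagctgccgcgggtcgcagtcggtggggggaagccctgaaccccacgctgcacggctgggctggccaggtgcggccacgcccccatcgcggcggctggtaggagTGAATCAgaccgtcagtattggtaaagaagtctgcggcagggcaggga
The searched letters were TATAAA (core promoter box), AACCNGTT (grainyhead factors), CACCC (Klf factors), AGATAA (the family of Gata3), TGANTCA (AP-1), GAAAGTG (Prdm1 and interferon regulatory factors) and a half-site of the p53 family. In Grhl3 the capitals were 3 CACCC matches, 117, 109 and 76 bases before the start. CACCC is frequent, and 52.0% of 32851 promoter windows of the same length held it. In Prdm1 a single TGANTCA lay 48 bases before the start, a motif that 6.75% of windows held, and this window lies inside the gene as GENCODE M21 draws it. In Foxn1 a p53-family half-site lay 106 bases and a CACCC 17 bases before the start, with the half-site in 7.13% of windows. No searched motif was found in the window of Klf4, and no window of the 6 genes held the core promoter box or the letters listed for grainyhead, GATA and Prdm1 factors, which 12.4%, 1.79%, 9.99% and 4.01% of all windows held. Bnc1 and Gata3 held only CACCC, with 4 and 3 matches. Such matches describe letters in a window and are no evidence of binding.

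The basal pair of factors declined at different rates. Trp63 (chr16:25683763-25892102, mm10) was measured at 401, 430.0 and 353 CPM in basal cells of replicates 1 to 3, at 360.2, 365 and 293 in transitional cells and at 186, 211 and 203 in spinous cells. It then stood at 24.9, 28.2 and 16.2 in Lce1-low granular cells and at 0, 6.37 and 7.54 in Lce1-high cells. Basal and transitional values overlapped between libraries, and from there on every group lay below the one before it, with spinous cells still far above granular ones. From spinous to Lce1-low cells Trp63 fell by 2.67 ± 0.15 on the log2 scale (SE; adjusted p = 3.64e-13, edgeR quasi-likelihood test with Benjamini-Hochberg adjustment), or 6.38-fold lower. The fall from transitional to spinous cells was 0.41 ± 0.12 on the log2 scale under TMM (adjusted p = 0.00806) and was lost without replicate 1 (adjusted p = 0.139) or replicate 2 (adjusted p = 0.0844). Scaled to total UMIs this difference was -0.74 (adjusted p = 7.6e-05) and in DESeq2 -0.70 (adjusted p = 0.0002). The medians over all genes in those 2 fits were -0.29 and -0.24. The difference between transitional and basal cells was -0.29 ± 0.12 (adjusted p = 0.0761), and that between Lce1-high and Lce1-low cells -0.86 ± 0.36 (adjusted p = 0.116). Scaled to total UMIs the last difference was -1.85 (adjusted p = 0.000113). These counts do not separate the TA and ΔN isoforms of p63.

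Bnc1 (chr7:81966672-81992292), a zinc finger protein of basal keratinocytes, was found almost only in basal and transitional cells. Basal cells held 14.7, 13.0 and 12.7 CPM, transitional cells 0, 6.48 and 5.90, and spinous cells 0.399, 0.237 and 0.230. No Bnc1 UMI was found among 5834629 UMIs of Lce1-low cells or among 2762496 UMIs of Lce1-high cells, which allows up to 0.514 and 1.09 CPM (3 counts; counting error only). Basal cells were above the other groups in every library, and the transitional value of replicate 1 rested on 0 counts in 410916 UMIs. Bnc1 fell by 1.45 ± 0.43 on the log2 scale from basal to transitional cells (adjusted p = 0.0176), a call lost without replicate 1 (adjusted p = 0.0785) or replicate 3 (adjusted p = 0.101). It fell by a further 3.76 ± 0.72 from transitional to spinous cells (adjusted p = 0.000385), where the total was 9 UMIs. Bnc1 in basal cells was at least 26.2-fold higher than the limit for Lce1-low cells.

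**Figure D1:**
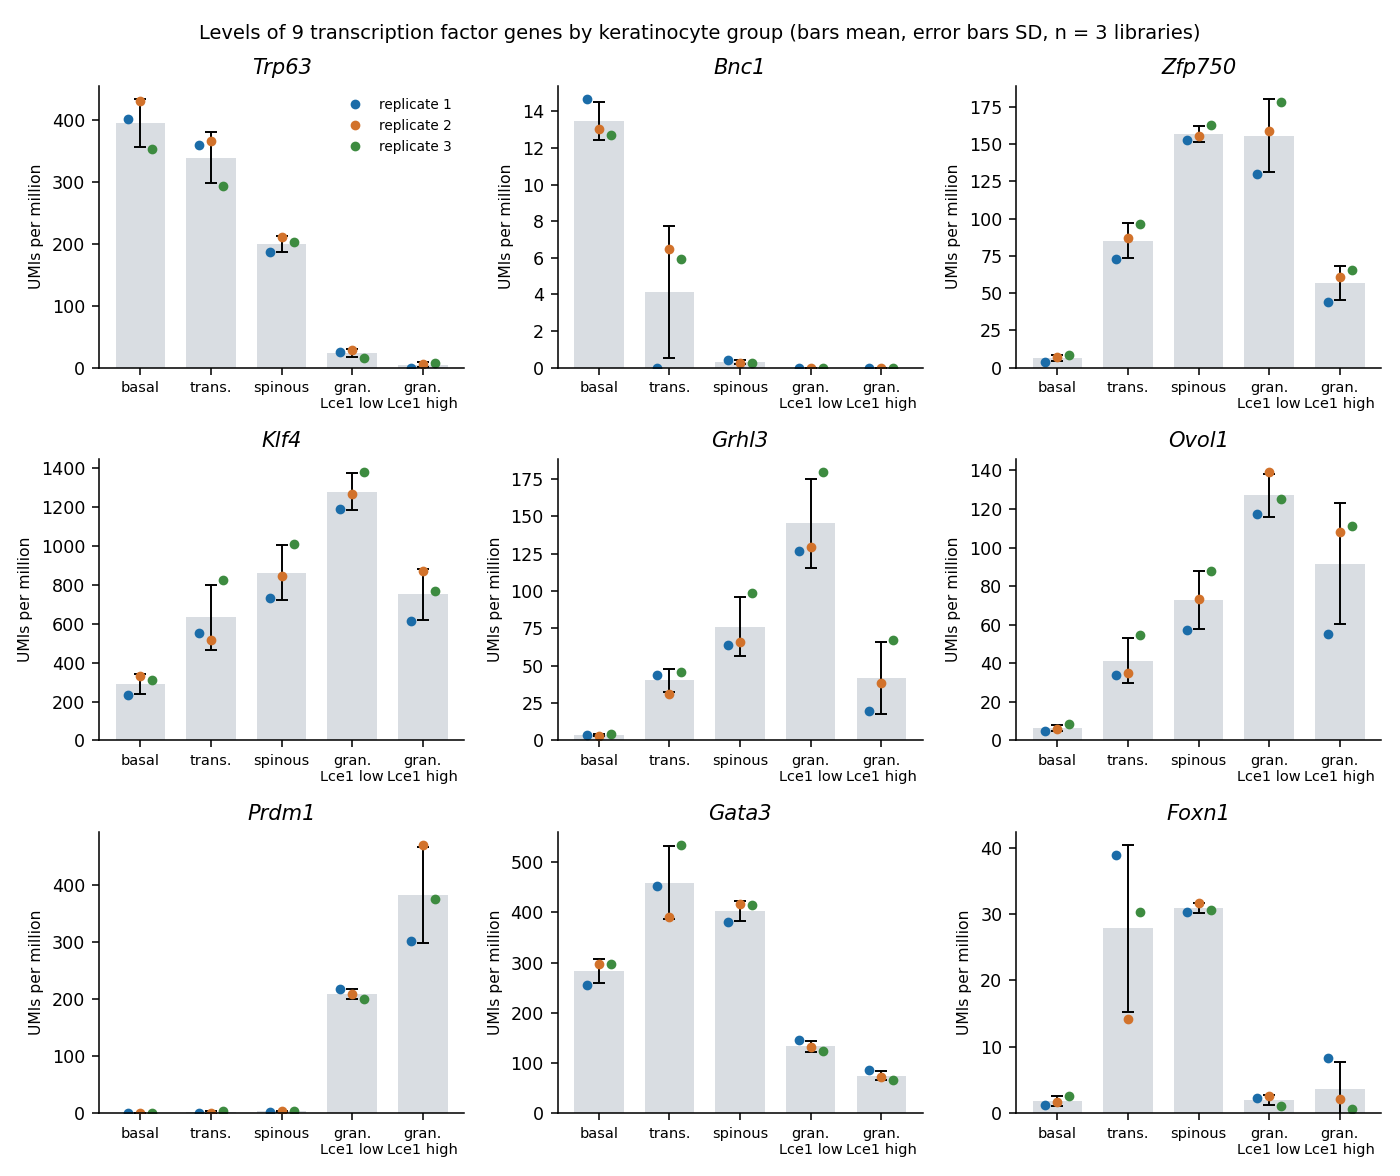
Levels of the 9 genes in CPM, the gene's UMIs per 1000000 UMIs of the group (linear axes, one scale per gene) in basal, transitional (trans.), spinous and 2 granular (gran.) groups, with a point for each library, bars for the mean and error bars for the SD over 3 libraries. Trp63 and Bnc1 are highest in basal cells, Foxn1 and Gata3 in transitional and spinous cells, and Prdm1 in Lce1-high cells, where its libraries lie between 302 and 470.2.

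Zfp750 (chr11:121510978-121519333) was low in basal cells and high in spinous and Lce1-low cells. It was at 4.01, 6.79 and 8.09 CPM in basal cells of replicates 1 to 3, at 73.0, 86.8 and 96.2 in transitional cells and at 153, 156 and 163 in spinous cells. Lce1-low cells held 130.0, 159 and 179 and Lce1-high cells 44.3, 60.5 and 65.8. Libraries were separate at the first 2 steps, overlapped between spinous and Lce1-low cells, and were separate and lower in Lce1-high cells. Zfp750 rose 12.8-fold from basal to transitional cells (log2 3.68 ± 0.18, adjusted p = 8.47e-13) and 2.31-fold from there to spinous cells (1.21 ± 0.13, adjusted p = 1.81e-07). Its rise to Lce1-low cells under TMM (0.47 ± 0.10, adjusted p = 0.000287) was -0.02 when scaled to total UMIs (adjusted p = 0.888). Its fall to Lce1-high cells by 0.43 ± 0.15 on the log2 scale (adjusted p = 0.0468) was lost when any 1 replicate was left out (adjusted p from 0.0586 to 0.279). Zfp750 lies within Tbcd, a tubulin folding cofactor gene on the opposite strand, which was at 20.4 CPM in basal, 22.8 in transitional and 16.8 in spinous cells (pooled over libraries), while Zfp750 went from 6.30 ± 2.08 to 157 ± 5.24.

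Grhl3 (chr4:135541888-135573630), a grainyhead factor needed for the barrier, climbed over 3 steps. Its levels were 3.49, 2.97 and 4.27 CPM in basal cells, 43.8, 31.1 and 45.6 in transitional cells, 63.7, 66.2 and 98.9 in spinous cells, 127, 129.7 and 179.7 in Lce1-low cells and 19.4, 38.2 and 67.2 in Lce1-high cells. No library of a group overlapped with the next group at any of the 4 steps. Grhl3 rose 10.3-fold from basal to transitional (log2 3.36 ± 0.23, adjusted p = 2.13e-10), 2.50-fold to spinous (1.32 ± 0.16, adjusted p = 6.21e-07) and 2.69-fold to Lce1-low cells (1.43 ± 0.10, adjusted p = 1.91e-11). In Lce1-high cells it fell by 0.67 ± 0.15 on the log2 scale (adjusted p = 0.00193), and in a fit without the replicate block the same step had an adjusted p of 0.129.

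Ovol1 (chr19:5549136-5560646), a zinc finger repressor of proliferation genes, followed the same course up to the granular layer. It was at 5.06, 5.66 and 8.32 CPM in basal cells, 34.1, 35.0 and 54.8 in transitional cells, 57.5, 73.1 and 87.9 in spinous cells and 117, 139 and 125 in Lce1-low cells. Each of these steps separated the 3 libraries of the lower group from those of the upper one. The rises were 6.31-fold (log2 2.66 ± 0.22, adjusted p = 3.76e-09), 2.16-fold (1.11 ± 0.16, adjusted p = 8.17e-06) and 2.44-fold (1.29 ± 0.11, adjusted p = 3.49e-10). In Lce1-high cells the share of UMIs was lower, at 55.3, 108 and 111 CPM, and scaled to total UMIs Ovol1 fell by 0.41 on the log2 scale (adjusted p = 0.0208), whereas under TMM it rose by 0.58 ± 0.14 (adjusted p = 0.00336). The TMM call was lost without replicate 2 (adjusted p = 0.0529) or replicate 3 (adjusted p = 0.0857), and scaled to total UMIs without the genes that set the groups the value was -0.04 (adjusted p = 0.846).

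Klf4 (chr4:55527143-55532466), a Krüppel-like factor required for the barrier, was already present in most basal cells and climbed on to the Lce1-low group. It was at 233, 331 and 313 CPM in basal cells, 555, 518 and 828 in transitional cells, 732, 848 and 1011 in spinous cells, 1191, 1268 and 1381 in Lce1-low cells and 614, 875 and 771 in Lce1-high cells. Transitional and spinous libraries overlapped, but within each library Klf4 was higher in spinous cells. Klf4 about doubled at each of 2 steps, 2.07-fold from basal to transitional (log2 1.05 ± 0.14, adjusted p = 5.9e-06) and 2.10-fold from spinous to Lce1-low cells (1.07 ± 0.14, adjusted p = 3.21e-07), with a rise of 0.78 ± 0.14 between them (adjusted p = 0.000115). From Lce1-low to Lce1-high cells the TMM value was 0.25 ± 0.14 (adjusted p = 0.254), and scaled to total UMIs Klf4 fell by 0.77 on the log2 scale (adjusted p = 7.12e-05).

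Gata3 and Foxn1 had their highest levels in the middle of the sequence. Gata3 (chr2:9857078-9890034) was at 255, 298 and 297 CPM in basal cells, 453, 389.9 and 534 in transitional cells, 380.4, 416 and 414 in spinous cells, 145, 132 and 124 in Lce1-low cells and 85.8, 72.2 and 67.2 in Lce1-high cells. Transitional and spinous values overlapped, and both lay above basal and granular values in every library. Gata3 rose 1.56-fold from basal to transitional cells (log2 0.64 ± 0.12, adjusted p = 0.000421), a call lost with the keratin limit at 1% of UMIs, where 41 transitional cells remained (adjusted p = 0.0571). Between transitional and spinous cells the difference was 0.14 ± 0.12 (adjusted p = 0.394), and scaled to total UMIs -0.19 (adjusted p = 0.241). In Lce1-low cells Gata3 fell by 1.11 ± 0.13 on the log2 scale (adjusted p = 4.61e-08), or 2.16-fold lower. Between the granular groups the TMM value was 0.12 ± 0.17 (adjusted p = 0.708), and scaled to total UMIs it fell by 0.88 (adjusted p = 6.89e-05). The gene overlaps 9230102O04Rik on the same strand, which had at most 6.87 CPM in any group.

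Foxn1 (chr11:78357577-78386558), a forkhead factor, switched on and off again within the living layers. Basal cells held 1.22, 1.70 and 2.66 CPM, transitional cells 38.9, 14.2 and 30.4, and spinous cells 30.3, 31.7 and 30.6. Lce1-low cells then held 2.27, 2.61 and 1.15, and Lce1-high cells 8.30, 2.12 and 0.685, the latter from 3, 2 and 1 UMIs. Every transitional and spinous value was above every basal and granular one. Foxn1 rose 12.9-fold from basal to transitional cells (log2 3.69 ± 0.37, adjusted p = 9.91e-08), and it fell by 3.53 ± 0.36 from spinous to Lce1-low cells (adjusted p = 1.1e-08), or 11.5-fold lower. The transitional and spinous levels differed by 0.55 ± 0.24 (adjusted p = 0.0838), and the granular groups by 1.19 ± 0.93 (adjusted p = 0.446).

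Among the 5 groups Prdm1 (chr10:44437177-44528501) was nearly restricted in level to granular cells. Basal cells held 0.698, 0.991 and 0.809 CPM, transitional cells 0, 0 and 4.22, and spinous cells 2.13, 3.08 and 4.38. Lce1-low cells held 218, 209 and 200.1, and Lce1-high cells 302, 470.2 and 376. All granular libraries were above all others, and Lce1-high libraries were above all Lce1-low ones. Prdm1 rose 87.5-fold from spinous to Lce1-low cells (log2 6.45 ± 0.17, adjusted p = 1.3e-18) and by 1.90 ± 0.13 from there to Lce1-high cells (adjusted p = 5.45e-11). It was the only one of the 9 genes that rose at the last step under TMM and also when scaled to total UMIs (0.89, adjusted p = 8.66e-06). At the first 2 steps the differences were 1.23 ± 0.91 (adjusted p = 0.357) and 0.99 ± 0.69 (adjusted p = 0.286), with 5 UMIs in all transitional cells.

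Read over the 9 genes in plain CPM, the highest group mean was 459-fold the lowest for Prdm1, 85.1-fold for Trp63, 40.6-fold for Grhl3, 24.9-fold for Zfp750, 20.0-fold for Ovol1, 16.6-fold for Foxn1, 6.11-fold for Gata3 and 4.38-fold for Klf4. Unlike the fold changes, these ratios are not scaled by TMM, and their sizes and order depend on the scaling. Lce1-high cells, where the scalings differ most, were the lowest group for Trp63 and Gata3 and the highest for Prdm1. Prdm1 had its lowest mean in basal cells on 18 UMIs and Trp63 its lowest in Lce1-high cells on 17 UMIs, so these ratios are imprecise. From basal to transitional cells 6 of the 9 genes rose (Zfp750, Klf4, Grhl3, Ovol1, Gata3, Foxn1) and Bnc1 fell, where 26.3% of 9852 genes tested were called, 11.5% higher and 14.8% lower (2596 genes, and 1173 without replicate 3). Without marked doublets the same count of 7 members was called at this step, with 2461 of 9911 genes tested. From transitional to spinous cells 4 rose (Zfp750, Klf4, Grhl3, Ovol1) and 2 fell (Trp63, Bnc1), against 36.1% of genes called, 20.5% higher and 15.6% lower. From spinous to Lce1-low cells 5 rose (Zfp750, Klf4, Grhl3, Ovol1, Prdm1) and 3 fell (Trp63, Gata3, Foxn1), with no fold for Bnc1. At that step 70% of all genes tested were called (32.3% higher, 37.7% lower), so being called there says little about these genes. From Lce1-low to Lce1-high cells 2 rose (Ovol1, Prdm1) and 2 fell (Zfp750, Grhl3), where 17.4% of genes were called, 11.3% higher and 6.09% lower. The count of members called at this step was 2 in the fit without the replicate block, 2 without replicate 2 or without replicate 3, and 7 scaled to total UMIs, where Ovol1 fell. Over all genes 1558 were called without the block, 1194 without replicate 2, 1301 without replicate 3 and 6023 of 9852 scaled to total UMIs. With so many genes called by total UMIs, the count of 7 says little about these members.

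**Figure D2:**
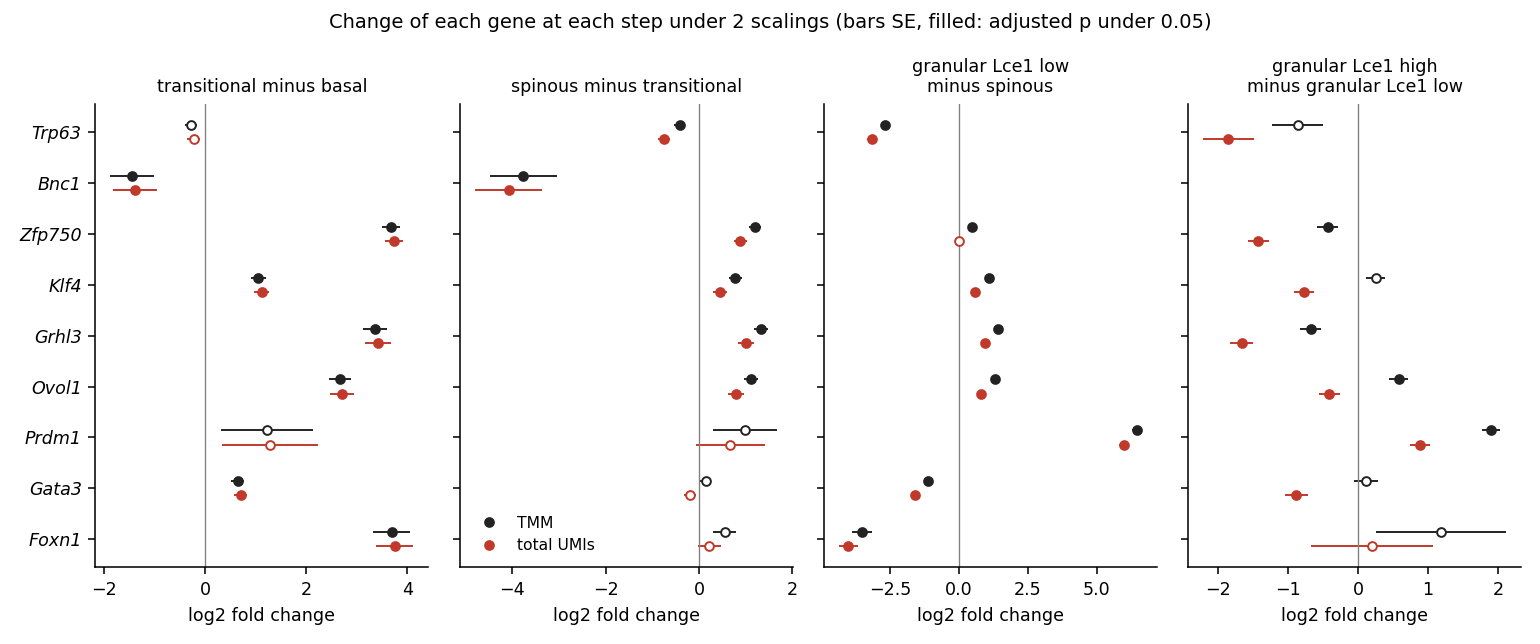
Log2 fold change of each gene at each of the 4 steps with its SE, in the TMM-scaled fit (black) and scaled to total UMIs (red), with filled points for adjusted p under 0.05 and Bnc1 left out where granular cells had 0 UMIs. At the first step the 2 scalings nearly coincide, and at the last step Klf4, Ovol1 and Gata3 lie on opposite sides of 0.

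The 2 scalings moved apart with position for genes in general. The median log2 fold change over all genes tested was -0.09, 0.04, -0.16 and -0.20 at the 4 steps under TMM and -0.03, -0.29, -0.65 and -1.19 scaled to total UMIs. At the last step TMM called 1111 genes higher and 600 lower, and total UMIs called 560 higher and 5463 lower. From transitional to spinous cells the split was 2018 to 1535 under TMM and 1005 to 2970 by total UMIs, and from spinous to Lce1-low cells 3181 to 3711 and 2103 to 5371. Set against the median of -1.19 by total UMIs at the last step, Trp63 (-1.85), Grhl3 (-1.66) and Zfp750 (-1.42) lay below it. Gata3 (-0.88), Klf4 (-0.77), Ovol1 (-0.41), Foxn1 (0.21) and Prdm1 (0.89) lay above it. Distances from the median were not tested. The Foxn1 value had an SE of 0.87, from 6 UMIs in Lce1-high and 11 in Lce1-low cells, so its place is not resolved.

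Spinous cells are a wide class, and the 9 genes differed along it when cells were ordered by their Lor share (Lor is not one of the 9). Of the spinous cells, 1869 had under 0.02% of UMIs in Lor, 105 had 0.02% to 0.1%, and 127 had 0.1% to 1%, short of the granular limit. Trp63 was at 215 ± 18.8, 120.2 ± 36.6 and 71.3 ± 17.1 CPM in these 3 bins, lower in each bin nearer the granular limit. Foxn1 went from 32.9 ± 1.18 through 23.2 ± 4.55 to 9.56 ± 3.80 and Gata3 from 412 ± 23.2 through 376 ± 29.0 to 300.3 ± 57.2. Prdm1 went the other way, with 1.31 ± 0.268, 5.72 ± 2.70 and 25.8 ± 3.46. Grhl3 reached 149.7 ± 53.1 in the last bin from 68.8 ± 14.2 in the first, and Zfp750 196 ± 25.5 from 152 ± 2.19. The library ranges of the lowest and highest bins did not overlap for any of these 6 genes. They overlapped for Klf4, at 1279 ± 540.5 in the last bin and 804 ± 95.7 in the first, and for Ovol1, at 109.6 ± 36.4 and 67.6 ± 13.5. Bnc1 had at most 8 UMIs in a bin. Replicate 1 had only 7 cells in the last bin, with Klf4 at 863 against 1085 and 1890 in replicates 2 and 3. Ovol1 was there at 68.4 from 13 UMIs, against 123 and 138, and Foxn1 rested on 1 UMI. How many of all genes separate between these bins was not computed, so the separation is not read as particular to these genes. The bins were set after earlier results of these data were known and carry no test.

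**Figure D3:**
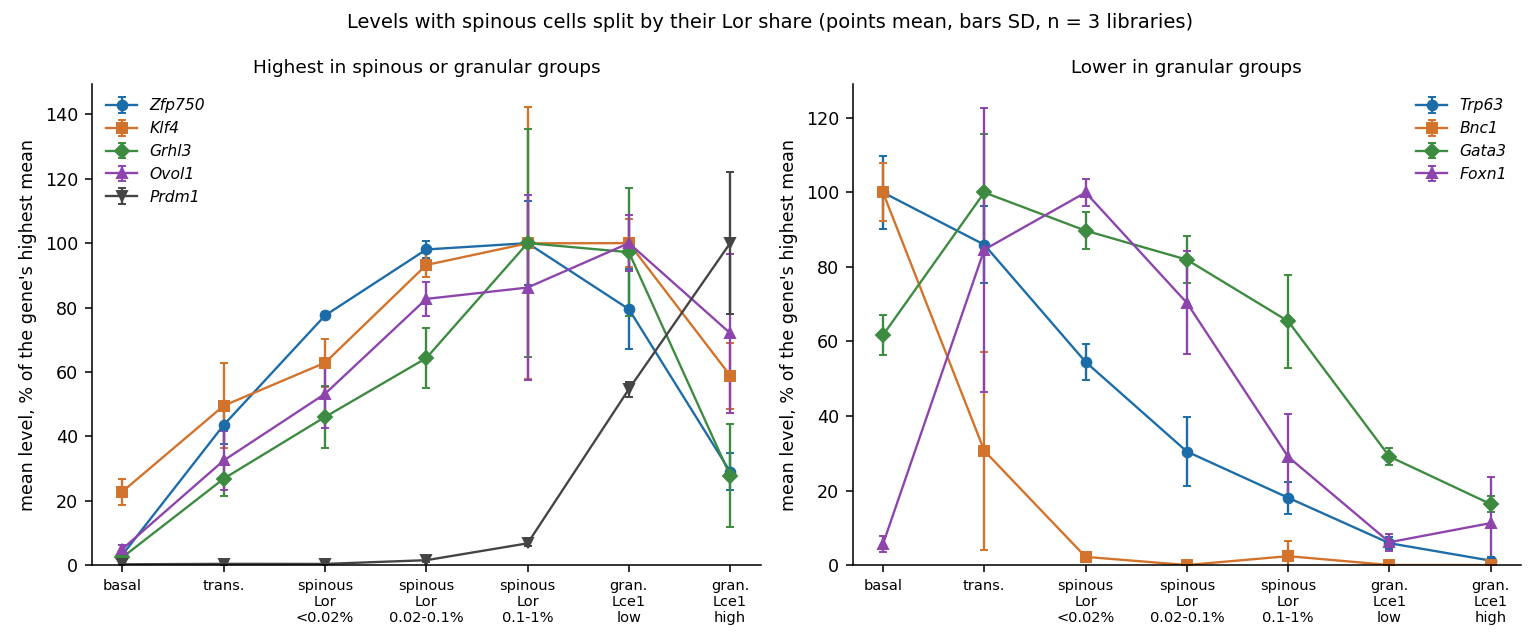
Mean level of each gene as a percent of its own highest mean (linear axis), with spinous cells split by Lor share, points for the mean over 3 libraries and bars for the SD. The left panel shows Prdm1 near 0 until the spinous bin with Lor at 0.1% to 1% and Grhl3 and Zfp750 falling again in Lce1-high cells, and the right panel shows Foxn1 and Trp63 dropping within the spinous bins.

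Around the limits of the rule the levels changed little for some genes and clearly for others. Just under the granular limit, in 49 cells with Lor at 0.5% to 1%, Prdm1 was at 39.2 ± 12.8 CPM, and just above it, in 69 cells with Lor at 1% to 2%, at 60.6 ± 25.6. Trp63 was at 30.2 ± 0.626 and 29.2 ± 10.99 on the same 2 sides. At the Lce1 limit, 19 cells with 1% to 2% held Prdm1 at 403 ± 58.3 and 25 cells with 2% to 4% at 431 ± 94.8. Trp63 was at 51.8 ± 17.2 (32.7 to 66.0 over the libraries) below the Lce1 limit and at 5.69 ± 5.66 (0 to 11.3) above it, from 17 and 3 UMIs. The value below the limit was itself above the 23.1 ± 6.24 of all Lce1-low cells, and was 84.6 as a mean of per-cell values. The drop at this limit is therefore not read as the size of a change between the granular groups. The library ranges of the 2 sides overlapped for Prdm1 at both limits and for Trp63 at the granular limit, and those of Trp63 at the Lce1 limit did not. Basal cells nearest the Krt1 plus Krt10 limit (145 cells with 0.25% to 0.5%) held Zfp750 at 41.2 ± 8.18 and Foxn1 at 10.4 ± 5.77, above the means of all basal cells, 6.30 ± 2.08 and 1.86 ± 0.731.

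The share of cells with a transcript was compared at equal depth. After each cell was thinned to 5000 UMIs, Prdm1 was detected in 0.299% ± 0.0916 of basal, 0.963% ± 0.419 of spinous, 59.0% ± 5.60 of Lce1-low and 76.9% ± 7.30 of Lce1-high cells. Unthinned, these shares were 0.666%, 3.75%, 80.4% and 93.0%. Foxn1 was detected in 0.674% ± 0.278 of basal and 12.9% ± 2.26 of spinous cells (unthinned 1.61% and 36.2%). Trp63 was detected in 83.1% ± 3.26 of basal, 60.6% ± 3.17 of spinous and 5.33% ± 1.64 of Lce1-low cells (unthinned 88.8%, 87.3% and 19.6%). Klf4 was already in 69.4% ± 6.34 of basal cells and reached 99.3% ± 1.23 of Lce1-low cells (unthinned 81.8% and 98.7%). Cells with Langerhans cell markers, antigen-presenting cells that should lack keratinocyte factors, gave shares of 7.74% for Trp63, 4.17% for Klf4 and 8.33% for Prdm1. These shares came from 26 cells deep enough for thinning, in replicates 2 and 3 only, with unthinned shares of 4.58%, 13.3% and 4.17%. The median depth of those 44 Langerhans-marker cells was 5249.5 UMIs against 8354 in basal and 15047 in spinous cells. After thinning, the Trp63 share in Lce1-low cells and the Prdm1 shares in basal and spinous cells lay below the Langerhans-marker share. That share rested on 2 of 26 cells for each gene (pooled 95% interval 0.946% to 25.1%), so the order is not resolved. Unthinned and at unequal depth, Trp63 had the reverse order, 19.6% of Lce1-low against 4.58% of Langerhans-marker cells. These low shares are not told apart from background and are not read as expression, although Klf4 and Prdm1 are also known from myeloid cells. Thinning left out 431 basal, 39 transitional, 190 spinous, 30 Lce1-low and 16 Lce1-high cells for their depth.

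**Figure D4:**
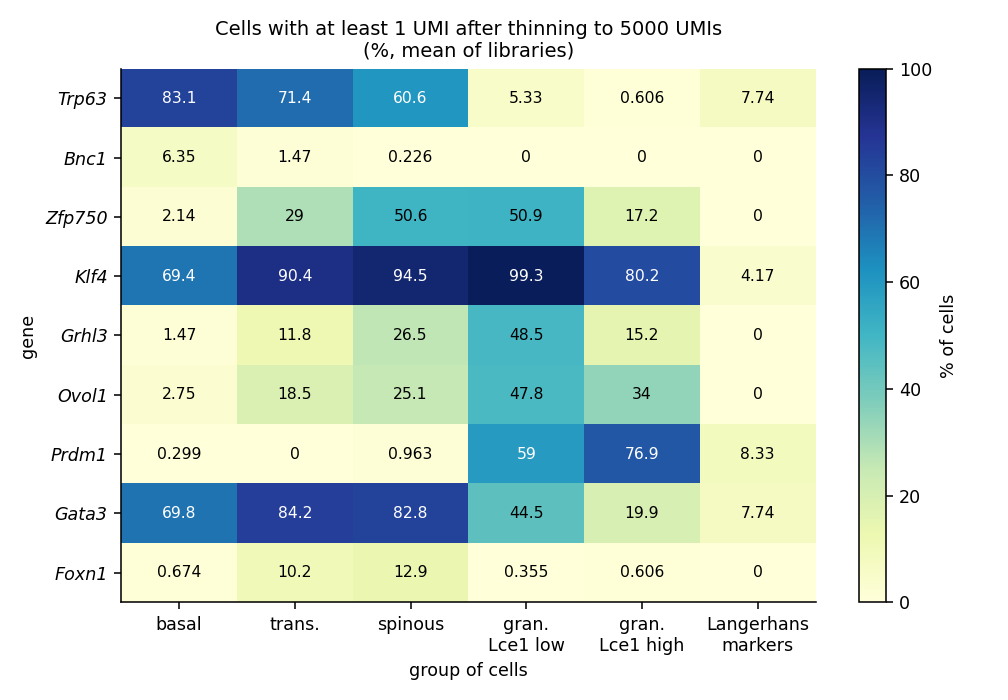
Percent of cells with at least 1 UMI of each gene after thinning to 5000 UMIs per cell, as the mean of libraries, for the 5 groups and for Langerhans-marker cells outside them (darker is higher). Klf4 is detected in most cells of every keratinocyte group, and Prdm1 goes from 0.963% of spinous to 59% of Lce1-low cells.

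Across the 15 profiles (5 groups in 3 libraries) Zfp750, Klf4, Grhl3 and Ovol1 had like courses, given as a description because profiles share libraries and scaling. Pearson's r of log2(TMM-scaled CPM + 1) was 0.984 for Klf4 with Ovol1, 0.970 for Zfp750 with Grhl3, 0.955 for Grhl3 with Ovol1, 0.934 for Zfp750 with Ovol1, 0.920 for Klf4 with Grhl3 and 0.885 for Zfp750 with Klf4. Prdm1 had r of 0.902 with Klf4, 0.842 with Ovol1, 0.706 with Grhl3 and 0.613 with Zfp750. For Gata3 with Foxn1 it was 0.860, and it was -0.909 for Bnc1 with Grhl3 and -0.900 for Trp63 with Prdm1. Among 9843 other genes tested, the one most like each member over the same 15 profiles was Pdcd11 for Trp63 (r = 0.994), a ribosome biogenesis factor. For Bnc1 it was the atypical chemokine receptor Ackr3 (0.987), for Zfp750 the very long chain fatty acid elongase Elovl4 (0.997) and for Klf4 the immunoglobulin-domain gene Mpzl3 (0.993). For Grhl3 it was the sorting receptor Sort1 (0.993), for Ovol1 the lipase Lipm (0.994) and for Prdm1 the interleukin 36 gene Il1f8 (0.997). Gata3 and Foxn1 had looser matches, the cotransporter Slc12a2 (0.915) and the connexin gene Gjd3 (0.911). The ceramide and barrier lipid transporter Abca12 was second for Ovol1 (0.993), and Adgrf4 and Irx3 followed for Grhl3 (0.993 and 0.984).

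Other epidermal transcription factors, a list of 63 of which 54 passed the low-count filter, moved in both directions. From basal to transitional cells 19 rose and 11 fell (11.5% and 14.8% of all genes), with a median log2 change of 0.06 against -0.09 over all genes. Cebpa rose from 29.5 ± 4.23 to 144 ± 51.8 CPM (log2 2.27 ± 0.16, adjusted p = 4.34e-10). Sox9, a factor of hair follicle stem cells, fell from 15.3 ± 6.13 to a level set by 1 UMI (adjusted p = 2.82e-05), and Runx1 from 3.53 ± 1.27 likewise to 1 UMI (adjusted p = 0.0253). Bulge-marker cells were 194 of the basal and 8 of the transitional cells, and their part in the fall of Sox9 was not tested. From transitional to spinous cells 16 rose and 9 fell by TMM (20.5% and 15.6% of all genes). By total UMIs 10 rose and 22 fell, where 1005 of 9852 genes rose and 2970 fell. The medians of the list by these 2 scalings were 0.19 and -0.13, against 0.04 and -0.29 over all genes. Grhl1, a second grainyhead factor, rose from 68.1 ± 25.4 to 188 ± 12.8 (1.70 ± 0.15, adjusted p = 1.09e-08), and Barx2 from 8.36 ± 6.36 to 24.4 ± 2.08 (1.71 ± 0.34, adjusted p = 0.00032). Trp73, the p53 family member closest to p63, fell from 5.07 ± 2.58 to 0.332 ± 0.265 (-3.59 ± 0.68, adjusted p = 0.000282), and Tcf7l2, a Wnt effector, from 27.9 ± 1.77 to 8.87 ± 0.806 (-1.33 ± 0.21, adjusted p = 3.42e-05).

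In granular cells members of the same list again moved in both directions. From spinous to Lce1-low cells 22 of 54 rose and 25 fell, where 32.3% of all genes tested were higher and 37.7% lower, with a median of 0.05 by TMM and -0.44 by total UMIs against -0.16 and -0.65 over all genes. With 70% of all genes called, these counts say little about the list. Mxd1, a Myc antagonist, rose from 9.75 ± 1.57 to 175 ± 23.7 CPM (log2 4.63 ± 0.13, adjusted p = 2.18e-18) and on to 436 ± 78.1 in Lce1-high cells (2.31 ± 0.11, adjusted p = 8.98e-14), a course like that of Prdm1. Elf5 rose from 0.314 ± 0.135 to 4.58 ± 1.65 (4.21 ± 0.59, adjusted p = 2.07e-06). Mycl fell from 45.6 ± 6.80 to 2.80 ± 2.16 (-3.76 ± 0.30, adjusted p = 1.39e-10), and Bcl11a from 11.5 ± 0.471 to 1.31 ± 1.49 (-2.97 ± 0.48, adjusted p = 1.07e-05). At the last step 6 rose and 11 fell by TMM (11.3% and 6.09% of all genes). By total UMIs 3 rose and 38 fell, where 560 of 9852 genes rose and 5463 fell. Runx1, low elsewhere, rose from 2.68 ± 1.62 to 61.7 ± 21.3 (5.58 ± 0.31, adjusted p = 5.8e-13). Ahr, the dioxin receptor, fell from 84.0 ± 8.48 to 15.9 ± 6.59 (-1.27 ± 0.23, adjusted p = 0.00015), and the homeobox gene Dlx5 from 66.2 ± 10.8 to 17.4 ± 5.55 (-1.02 ± 0.21, adjusted p = 0.00102).

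Genes of adhesion and signalling known to depend on p63, 22 tested of 23 listed, fell in majority at the first 3 steps, while a few rose. At the first step 13 fell and 4 rose, at the second 16 fell and 5 rose, and at the third 12 fell and 5 rose, with medians of -0.56, -2.01 and -0.87 on the log2 scale. Over all genes tested 14.8%, 15.6% and 37.7% fell and 11.5%, 20.5% and 32.3% rose at these steps, with medians of -0.09, 0.04 and -0.16. The count at the third step is the one closest to that background. Lamb3, a laminin-332 chain, fell from 117 ± 13.2 in basal to 38.3 ± 11.1 in transitional cells (-1.56 ± 0.19, adjusted p = 2.16e-06), and Itga3 fell there by 1.38 ± 0.22 (adjusted p = 4.5e-05). In spinous cells Itga3 fell again by 4.74 ± 0.39 (adjusted p = 2.87e-09), and the Notch ligand Jag2 from 58.5 ± 13.2 to 2.46 ± 0.465 (-4.21 ± 0.21, adjusted p = 2.41e-12). These falls came at the step where Trp63 itself fell by 0.41 under TMM (-0.74 scaled to total UMIs), from 339 ± 40.5 to 200.0 ± 12.5. The larger fall of Trp63 came at the third step, to 23.1 ± 6.24 CPM in Lce1-low cells. The list median was -0.87 there and -2.01 at the second step. A link between the level of Trp63 and these genes was not tested. Trim29, a ubiquitin ligase, rose at the first step (1.17 ± 0.13, adjusted p = 4.87e-07). The tight junction gene Cldn1 rose from 85.6 ± 3.97 in transitional to 145 ± 4.70 in spinous and 256 ± 40.1 in Lce1-low cells (1.12 ± 0.17, adjusted p = 2.13e-05, and 1.32 ± 0.13, adjusted p = 7.89e-09). From spinous to Lce1-low cells Lama3 fell from 10.6 ± 1.90 to 1.79 ± 1.14 (adjusted p = 1.01e-05) and Igfbp3 from 39.3 ± 12.2 to 6.38 ± 4.44 (adjusted p = 4.89e-05). At the last step 3 fell and 19 did not pass the test, where 6.09% of all genes fell by TMM. By total UMIs 16 of the 22 fell, where 5463 of 9852 genes fell.

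Late differentiation genes, 46 tested of 48 listed, mostly rose at the first 3 steps. Under TMM Zfp750, Grhl3, Ovol1 and Klf4 were called higher at these steps too. For Zfp750 the third step was -0.02 scaled to total UMIs (adjusted p = 0.888). A link between these factors and the list was not tested. The groups were set by Krt1, Krt10, Lor and Lce1 genes, so a rise of other differentiation genes along them is in part built into the grouping. At the first 3 steps 40, 40 and 38 rose and 2, 1 and 5 fell, with medians of 2.36, 1.59 and 2.21 on the log2 scale, where 11.5%, 20.5% and 32.3% of all genes rose. Serpinb12 rose from 3.31 ± 0.541 in basal to 122 ± 57.8 CPM in transitional cells (5.18 ± 0.28, adjusted p = 3.24e-12), and the tight junction gene Cldn4 from 1.83 ± 0.620 to 47.5 ± 36.9 (4.77 ± 0.35, adjusted p = 6.81e-10). The protease Klk7 rose from 30.1 ± 40.4 to 327 ± 24.7 in spinous cells (3.50 ± 0.39, adjusted p = 2.51e-07), and transglutaminase Tgm1, which crosslinks the cornified envelope, from 2.25 ± 3.90 to 26.2 ± 3.73 (3.30 ± 0.45, adjusted p = 4.16e-06). Flg2 and Crct1 rose most from spinous to Lce1-low cells, by 6.67 ± 0.45 (adjusted p = 8.57e-12) and 9.46 ± 0.38 (adjusted p = 6.69e-16). Tgm3 went against the list, from 30.8 ± 5.71 in basal to 19.4 ± 5.11 in transitional cells (-0.73 ± 0.23, adjusted p = 0.0228) and from 20.6 ± 5.48 in spinous to 4.08 ± 2.18 in Lce1-low cells (-1.84 ± 0.28, adjusted p = 3.66e-06). At the last step 18 rose and 6 fell by TMM (median 0.42), where 11.3% of all genes rose and 6.09% fell (median -0.20). By total UMIs 6 rose and 28 fell (median -0.59), where 560 of 9852 genes rose and 5463 fell (median -1.19). Elovl1, a fatty acid elongase, and Cldn4 were among those that fell there, by 0.89 ± 0.16 (adjusted p = 0.00016) and 0.82 ± 0.19 (adjusted p = 0.00251).

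**Figure D5:**
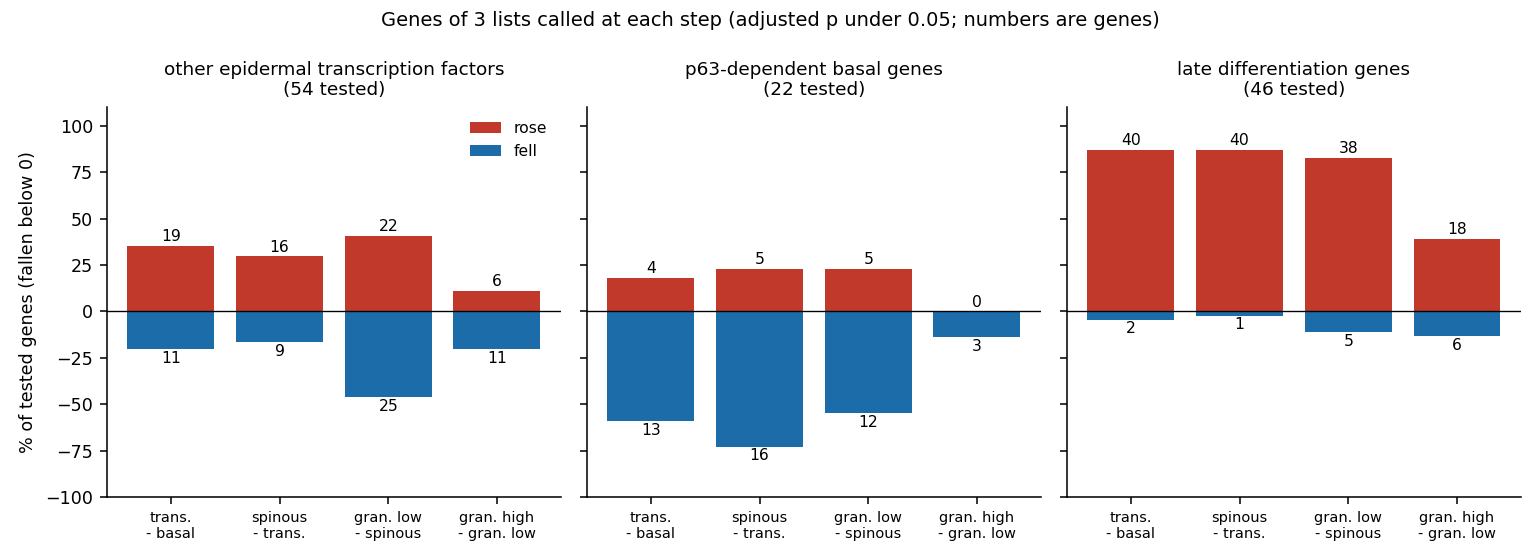
Percent of the tested genes of each list that rose (red, above 0) or fell (blue, below 0) at each step at an adjusted p under 0.05 in the TMM-scaled fit, with the number of genes on each bar. Late differentiation genes mostly rise at the first 3 steps, p63-dependent basal genes mostly fall there, and other epidermal transcription factors do both.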

How the data were processed

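Single-cell RNA libraries were made from dissociated and frozen ear epidermis with the V(D)J chemistry of 10x Genomics, in which droplets capture single cells and UMIs tag the 5′ side of transcripts. Short cDNA pieces were returned to the library, and reads were paired and 150 bases long, per the labels' protocols. The deposited matrices hold raw UMI counts per gene and barcode, made with Cell Ranger 3.1.0 on build mm10, per the submitters' processing notes and the file headers. The gene annotation and other settings are not given in the sources used here.

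Of 6078 barcodes, 5340 passed the limits of 500 detected genes and 10% mitochondrial UMIs (395 had too few genes, 598 too high a mitochondrial share). Scrublet (scanpy 1.11.5, expected doublet rate 0.8% per 1000 cells) marked 33 doublets, which were kept and left out in an alternative. Libraries shared 11 barcode sequences. A cell reaching 1% Lor was called granular whatever its keratins, which concerned 10 cells with the basal keratins at their limit. Cells with Langerhans, follicle or other markers had at least 0.1% and 3 UMIs in that list.

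Counts were summed per library and group into 15 profiles and fitted together with edgeR 4.0.16 under R 4.3.3, using TMM, filterByExpr, library as a block and a quasi-likelihood test. Benjamini-Hochberg adjustment ran over the 9871 genes that passed the filter, and genes were called at 0.05. The 19 genes that set the groups were then left out of counts, which cover 9852 genes. The SE is the log2 fold change divided by the root of F. The block pairs groups of the same library by construction. Deviations from the group mean correlated between groups of a library with r from 0.0160 to 0.223. On simulated transitional and basal counts of 9871 genes, 57 of 97 genes changed 2-fold and 91 of 98 changed 4-fold were called in the right direction, and 5 of 9171 unchanged genes were called.

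Alternatives covered scaling, DESeq2 1.42.0, the low-count filter, the block, each replicate, the cell filters and limits, doublets, and cells with other or cycling markers. Named list genes are up to 2 with the largest rise and 2 with the largest fall per list and step among those called and moving the same way in all libraries, and some that this rule names are not reported here. The members, lists and bins were chosen with earlier results of these data known. Gene coordinates come from GENCODE M21 on mm10. Intervals and limits cover counting error only.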

Additional observations from a re-analysis of the deposited data

How the results depend on the processing

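Each of 34 tests of the 9 genes was repeated under up to 15 alternatives, 506 in all. Of these, 469 kept direction and side of the threshold, 19 lost the call, 6 gained one and 12 changed sign, and 20 tests kept direction and call throughout. From basal to transitional cells 2596 genes were called, 1563 with the keratin limit at 1% and 1173 to 2138 when a replicate was left out. From transitional to spinous cells 3553 were called, and 2086 with that limit. At the last step 1711 were called, 6023 scaled to total UMIs and 4456 scaled to total UMIs without the group-setting genes. The 4 members called there became 7 scaled to total UMIs, 2 without the replicate block, and 2 to 3 when a replicate was left out. Over all genes 1558 were called there without the block and 1194 to 1471 when a replicate was left out. The block moved no other count of members.

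Signs changed as follows, and the cause was not tested. Scaled to total UMIs, and again without the group-setting genes, the last step gave -0.77 and -0.38 for Klf4, -0.41 and -0.038 for Ovol1 and -0.88 and -0.50 for Gata3. The same 2 scalings gave -0.19 and -0.20 for Gata3 from transitional to spinous cells, where DESeq2 gave -0.14. Zfp750 from spinous to Lce1-low cells was -0.017 scaled to total UMIs. Gata3 at the last step was -0.00083 with no low-count filter, and Prdm1 from basal to transitional cells -0.31 without cycling cells. No value was given for Prdm1 at the first step without replicate 3, or for Prdm1 and Bnc1 where a 1% limit left too few counts. Per-cell means put 37 of 45 levels within 1 SD. Precision was lowest in transitional cells of replicate 1 (31 cells) and Lce1-high cells of replicate 1 (12 cells).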

Other observations

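Within basal cells Trp63 and some other members differed between marker classes, given as values with no test. Trp63 was at 519 ± 52.9 CPM (SD, n = 3 libraries) in 194 basal cells with hair follicle bulge markers and 385 ± 43.1 in the 2193 without, and the library ranges did not overlap (478 to 579 and 337 to 421). Klf4 was at 376 ± 42.5 and 287 ± 51.8, also without overlap (340 to 423 and 228 to 325). Grhl3 and Prdm1 were higher in bulge-marker cells without overlap too, from 10 and 6 UMIs there. Gata3 was at 347 ± 90.5 and 278 ± 19.4, with overlapping ranges. In 391 basal cells with cell cycle markers Trp63 was at 316 ± 23.1 against 417 ± 36.1 in the 1996 without, also with no overlap (290.1 to 334 and 378 to 449.6). Grhl3 and Prdm1 were likewise lower in the cycling cells without overlap, from 9 and 0 UMIs there. How many of all genes separate between these classes was not computed, so the separation is not read as particular to Trp63.

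The 60 cells with upper follicle and sebaceous gland markers, of which 12 were in the basal group, 8 in the spinous group and 40 in no group, held Zfp750 at 103 ± 42.5, Klf4 at 403 ± 75.9, Ovol1 at 35.0 ± 26.0 and Trp63 at 159 ± 13.7 CPM, with no Bnc1 UMI among 538411. They held Prdm1 at 17.5 ± 12.8 CPM from 12 UMIs, above the 3.20 ± 1.13 of spinous cells. In 20 cells with T cell markers outside the groups, Gata3, which is also a T cell factor, had 5 UMIs among 59447 and Klf4 had 3, and Trp63, Zfp750, Ovol1, Prdm1 and Foxn1 had none, which at this depth allows up to 50.5 CPM.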
